A study of Mus musculus with 12 samples.

Results

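Tripartite motif (TRIM) genes were followed through the peritoneal cells of wild-type and lactoferrin knockout mice given LPS or saline. The members were taken by name as every gene symbol made of Trim and a number, which gave 67 of the 21851 gene symbols in the deposited tables. Cells from peritoneal lavage fluid of C57BL/6J mice had been sequenced as 12 libraries in 4 groups of 3: wild type given PBS, wild type given LPS, lactoferrin knockout given PBS and lactoferrin knockout given LPS, each by intraperitoneal injection. PBS is buffered saline and serves as the control, and LPS is the bacterial cell wall lipid that activates Toll-like receptor 4. The dose, the time from injection to lavage, the age and sex of the mice, and the knockout allele are details not given in the sources used here. The titles of the knockout libraries call the mice wild type, while their codes, descriptions and characteristics name the lactoferrin knockout, which was followed here. Nothing states that each library is 1 animal. The p-values therefore reflect only how far these libraries differ, which may be technical.

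TRIM proteins carry a RING domain, which gives most of them ubiquitin ligase activity, followed by B-box zinc fingers and a coiled coil through which they pair. The domain at the carboxyl end sorts them: SPRY domains bind proteins or viral capsids, PHD fingers with bromodomains read histones, and NHL repeats bind RNA or protein. In macrophages the family is known for antiviral restriction and for ubiquitin marks that raise or lower signalling from Toll-like receptors, RIG-I-like receptors and the cGAS-STING pathway, and many members are interferon-induced genes.

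Of the 67 members, 15 lie on chromosome 7, and 9 of these stand next to each other in a cluster from 104218793 to 104507849 (GRCm38), a span of 289 kb. The order along the cluster is Trim6, Trim34a, Trim5, Trim12a, Trim34b, Trim12c, Trim30b, Trim30a and Trim30d. Several of these neighbours are near copies of each other, and sequences near the starts of some are shown because copies moved differently after LPS. Sequences are also shown for Trim21 and Trim26, outside the cluster, whose windows hold the motif described next. The promoter windows came from RefSeq (GRCm38.p6) and run from 250 bases before to 50 bases after a gene's start. They were searched on both strands for the core of the interferon-stimulated response element, GAAA, any 2 bases, GAAA, which reads TTTC, any 2 bases, TTTC on the other strand. The sequences below are written in the direction of the gene, with the matched bases in capitals.
Trim30a, the 100 bases before the start, chr7:104465194-104465293, minus strand: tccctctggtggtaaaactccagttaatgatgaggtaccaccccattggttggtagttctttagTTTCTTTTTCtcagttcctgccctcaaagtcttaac
Trim30d, the 100 bases before the start, chr7:104507850-104507949, minus strand: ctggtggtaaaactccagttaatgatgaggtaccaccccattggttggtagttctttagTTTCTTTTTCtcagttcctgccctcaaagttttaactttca
Trim5, bases -59 to -30, chr7:104288136-104288165, minus strand: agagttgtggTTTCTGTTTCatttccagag
Trim12a, bases 1 to 30, chr7:104315466-104315495, minus strand: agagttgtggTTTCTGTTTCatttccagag
Trim12c, bases -39 to -10, chr7:104353359-104353388, minus strand: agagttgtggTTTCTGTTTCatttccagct
Trim34a, bases 1 to 30, chr7:104244457-104244486, plus strand: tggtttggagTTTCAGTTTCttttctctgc
Trim21, bases 4 to 33, chr7:102565450-102565479, minus strand: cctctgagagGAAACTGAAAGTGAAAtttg
Trim26, bases -170 to -141, chr17:36836976-36837005, plus strand: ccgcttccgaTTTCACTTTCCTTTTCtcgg

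Trim30a and Trim30d promoters aligned over 294 bases with 276 identical (93.9%). Trim5 and Trim12a promoters aligned over 241 bases with every base identical, and Trim5 and Trim12c over 278 bases with 262 identical (94.2%). The Trim30b window of RefSeq shared far less: its best local alignment to Trim30a covered 61 bases with 39 identical (63.9%), and it held no match to this motif. That window belongs to the RefSeq start of Trim30b only, which lies inside the longer gene that GENCODE annotates. The 8 sequences above are the tested members with a match, among 25 tested members that had a promoter entry. Over all genes with an entry, expressed here or not, 3.99% of 27025 held the motif (3.44% of 32851 promoter windows). The like count for the family was 9 of 52 members with an entry, which adds Trim2, a member under the filter. The windows of Trim5, Trim12a and Trim12c are near copies, as are those of Trim30a and Trim30d, so these matches are not separate. In Trim21 and Trim26, 2 matches overlap each other, and a second RefSeq start of Trim30a, not printed, also has 1 match. A match to these letters is a description of the window and not a site of binding.

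The files hold 1 value per gene and library, read here as FPKM, fragments per kilobase of transcript scaled to the mapped fragments of the library. Totals were 343874 to 388129 FPKM per library with 13921 to 14574 genes above 0; the depth behind them is unknown, since numbers of mapped reads were not stated. Wild-type PBS was the loosest group, with a Spearman correlation over genes of 0.934 between its libraries 2 and 3, where the lowest within the other 3 groups was 0.973. Library 2 had the lowest B cell and mast cell marker sums of the PBS libraries (530 and 292) and library 3 the highest macrophage sum (2015). Ltf itself, the lactoferrin gene, was at 1.16 to 1.89 FPKM in wild-type PBS, at 0.176, 1.33 and 0.275 in wild-type LPS, and at 0.0699 to 0.258 in the 6 knockout libraries, too low for the test. Markers of large peritoneal macrophages (8 genes, summed FPKM 890 to 2015), B cells (7 genes, 158 to 1120), neutrophils (7 genes, 153 to 3255) and mast cells (6 genes, 292 to 902) were present in every library, as in a mixed lavage.

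Marker sums of several cell types moved with treatment. The macrophage sum was 894 to 2015 in wild-type PBS and 890 to 1202 in wild-type LPS. In knockout it was 1083 to 1766 and 982 to 997. Within it, Selp averaged 116 under PBS and 322 under LPS in wild type, and 104 and 337 in knockout. Adgre1 went the other way, from 351 to 122 and from 314 to 153. Mean Gata6, Icam2, F5, Prg4 and Alox15 were also lower under LPS in both genotypes, and Timd4 in knockout alone. The neutrophil sum was 1951 to 3255 in wild-type PBS, 153 to 278 in wild-type LPS, 1198 to 3032 in knockout PBS and 710 to 2658 in knockout LPS. Its genes differed in knockout: mean S100a8 and S100a9 were 762 and 812 under PBS and 801 and 800 under LPS. Mean Cxcr2 went from 47.5 to 7.98 there and Mmp9 from 32 to 4.97. The monocyte sum (5 genes) was 231 to 701 and 273 to 391 under PBS in wild type and knockout, against 53.3 to 68.9 and 63.5 to 221 under LPS. The B cell sum was 530 to 1120 and 670 to 922 under PBS, against 260 to 374 and 158 to 270 under LPS. For the T cell markers (6 genes) the sums were 31 to 43 and 14.5 to 20.9 under PBS, against 12 to 14.2 and 6.95 to 14.7 under LPS; the natural killer sum (5 genes) stayed between 7.51 and 31 in all libraries. Hemoglobin and Alas2 RNA of red cells summed to 2224 FPKM in wild-type LPS library 2 and 1886 in knockout LPS library 1, against at most 330 elsewhere. No marker list was at 0 in any library, although the neutrophil receptor Cxcr1 averaged only 0.0137 FPKM in wild-type LPS and 0.0135 in knockout LPS. In wild type the neutrophil, monocyte, B cell and T cell sums did not overlap between PBS and LPS; in knockout the neutrophil sums and the T cell sums overlapped and the monocyte and B cell sums did not. The macrophage sums overlapped in wild type and did not in knockout. The part of these shifts in the LPS results was not tested. In such a mixture fewer cells of a type and less RNA per cell cannot be told apart.

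Of the 67 members, 34 averaged at least 1 FPKM over the 12 libraries and were tested; 14 averaged at least 10 FPKM, 8 were between 5 and 10, and 12 between 1 and 5. The other 33 fell under the filter, 10 of them above 0 in every library, 13 in some and 10 at 0 in all. All members together summed to 412 to 512 FPKM, or 0.113% to 0.144% of a library's total. Trim30a, a SPRY ligase known to curb Toll-like receptor signalling, led with a mean of 83.9 FPKM. Trim28, the corepressor that KRAB zinc finger proteins recruit to silence retroelements, followed with 61, and Trim30d with 35.9. These 3 genes supplied 26% to 48.2% of the family's sum. Next came Trim44 (23.4), Trim25 (22.7), Trim35 (21.3), Trim12c (20.5), Trim8 (19.1), Trim34a (18.6), Trim12a (16.9), Trim26 (16.3), Trim56 (15.9), Trim27 (15.8) and Trim21 (12 FPKM).

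**Figure D1:**
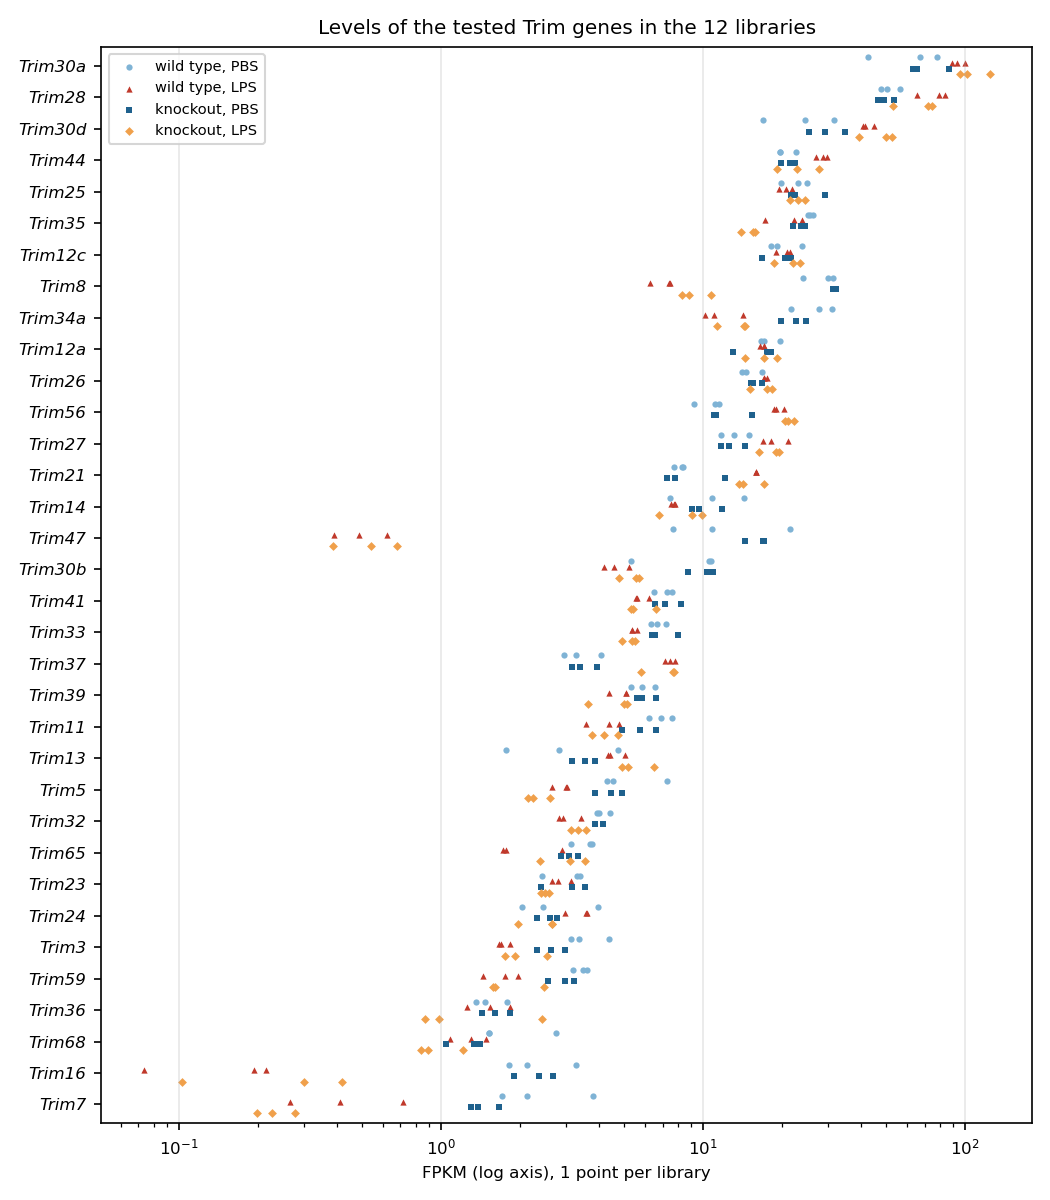
Level of each tested Trim gene in FPKM (log axis), 1 point per library, with colour and symbol for the 4 groups, ordered by mean level. Most genes keep within a narrow band, while Trim47, Trim16, Trim8 and Trim7 have their 6 LPS libraries well to the left of their 6 PBS libraries.

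LPS against PBS asks how the family's RNA differed after LPS injection, and was answered separately in each genotype. In wild type, 8 of the 34 tested members rose and 13 fell, at an adjusted p under 0.05 with limma on log2(FPKM + 1). Over all 9841 genes tested, 24.8% rose and 37.4% fell, so the family's shares lie near the background. In knockout mice 7 rose and 13 fell, beside 19.9% and 33.3% of all genes. The median log2 difference of the members was -0.25 in wild type and -0.19 in knockout, beside -0.11 and -0.12 over all genes tested. No member rose by 1 or more on the log2(FPKM + 1) scale in either genotype, where 7.01% of all genes did in wild type and 4.83% in knockout. The 1 FPKM added before the logarithm shrinks such differences. Without it, mean FPKM of Trim37 was 2.18 times higher under LPS in wild type and 2.02 times higher in knockout. By 1 or more, 5 members fell in wild type (Trim47, Trim8, Trim16, Trim7 and Trim34a) and 3 in knockout (Trim47, Trim8 and Trim16), beside 13.8% and 10.5% of all genes. In knockout Trim7 fell by 0.99, just short of this bound, with mean FPKM 6.2 times lower, and Trim34a fell by 0.70. Called in both genotypes were 7 risers, which are 87.5% of those in wild type and 100% of those in knockout, and 10 fallers, 76.9% of each list. None was called in opposite directions, and 10 were called in neither genotype. The like overlap over all genes tested was not computed, so this overlap is not read as a trait of the family. With values rescaled by median of ratios, which moved the median of all genes in wild type from -0.11 to -0.01 and in knockout from -0.12 to 0.00, the members split 10 higher and 12 lower in wild type and 8 higher and 9 lower in knockout. Over all genes that rescaling gave 3054 higher and 3124 lower in wild type (2443 and 3680 as deposited), and 2659 and 2600 in knockout (1958 and 3277). Without the 2 libraries rich in red cell RNA, 7 members rose and 12 fell in wild type and 4 rose and 10 fell in knockout. Without wild-type PBS library 3 the counts were 8 and 13 in wild type and 8 and 13 in knockout.

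**Figure D2:**
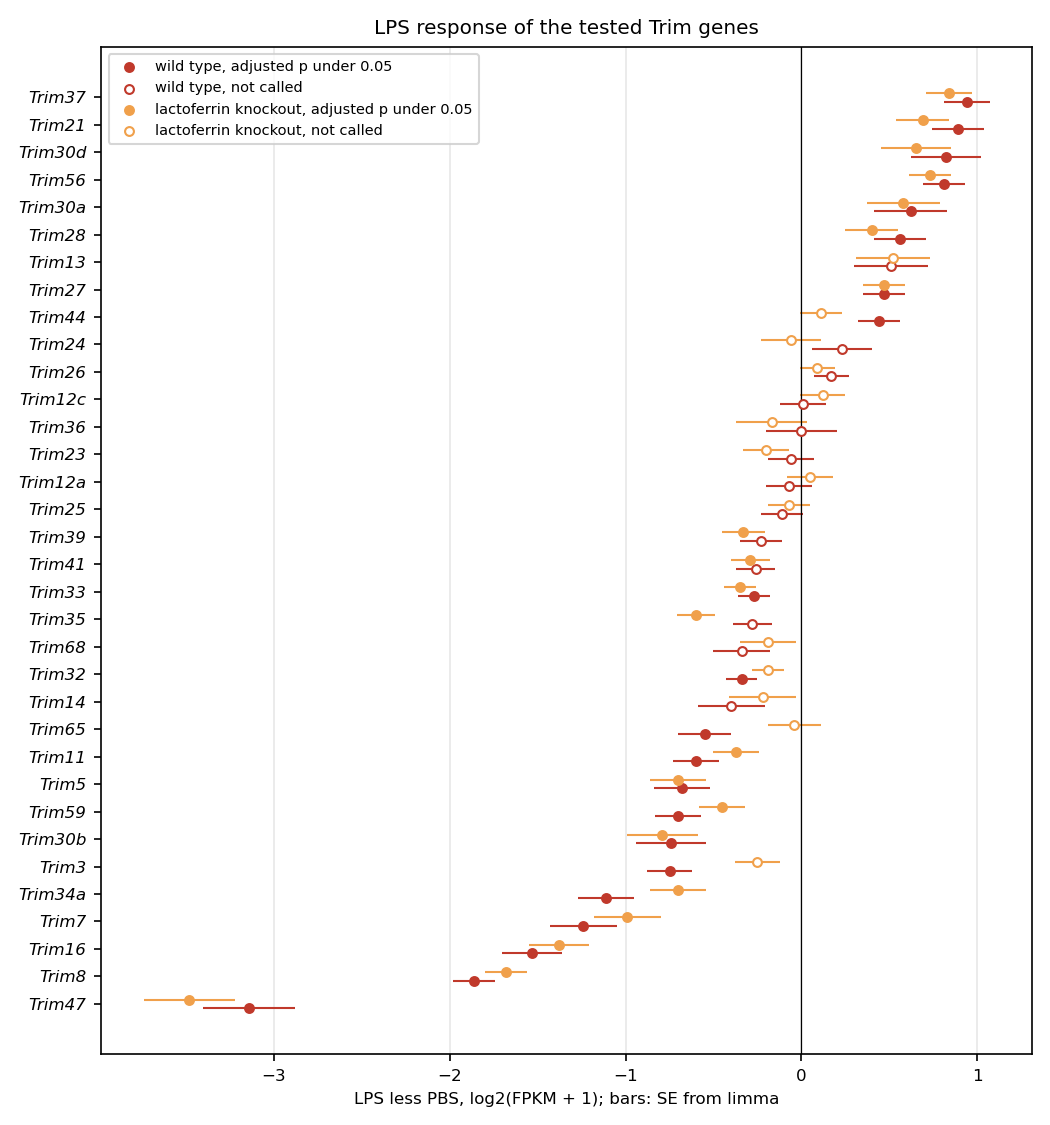
Difference LPS less PBS on the log2(FPKM + 1) scale for the 34 tested members in wild type and knockout, with the SE from limma as bars; filled points have an adjusted p under 0.05. Trim47 lies farthest left in both genotypes at -3.14 and -3.48, and Trim37 farthest right at 0.94 and 0.84.

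Protein classes were assigned to the genes without comparing protein sequences. The 35 members classed as SPRY with a RING had 19 tested. Of these, 4 rose and 7 fell in wild type (24.8% and 37.4% of all genes). In knockout 4 rose and 9 fell (19.9% and 33.3% of all genes). Trim14 and Trim16, the pair with SPRY but no RING, had Trim16 lower in both genotypes. Of the 3 tested PHD and bromodomain members, Trim28 rose, Trim33 fell and Trim24 was not called. Both tested NHL members, Trim3 and Trim32, fell in wild type and neither was called in knockout. Trim37, the only member with a MATH domain, rose in both. Of Trim8 and Trim56, tested members with RING, B-box and coiled coil alone, Trim56 rose and Trim8 fell in both genotypes.

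In the chromosome 7 cluster, neighbouring genes went in opposite directions. Trim30a was at 77.9, 67.5 and 42.4 FPKM in wild-type PBS, 100, 92.7 and 88.7 in wild-type LPS, 63.2, 65.7 and 86.7 in knockout PBS, and 124, 102 and 95.5 in knockout LPS. All 6 LPS libraries lay above the 6 PBS libraries. Trim30a rose by 0.62 ± 0.21 (SE, log2 difference) in wild type (adjusted p = 0.0212) and by 0.58 ± 0.21 in knockout (adjusted p = 0.0342). Trim30d, its closest copy and a less studied SPRY ligase, was at 31.5, 24.4 and 16.9 FPKM in wild-type PBS and 44.9, 41.4 and 40.7 in wild-type LPS. In knockout it was at 29.2, 25.3 and 34.7 under PBS and 49.7, 52.5 and 39.5 under LPS. Again no LPS library overlapped PBS, and the rises were 0.82 ± 0.20 (adjusted p = 0.00377) and 0.65 ± 0.20 (adjusted p = 0.016). In wild type the Trim30a call was lost without PBS library 3, where the difference was 0.37 (adjusted p = 0.0672), and without LPS library 1, where it was 0.57 (adjusted p = 0.0634). That PBS library had the lowest Trim30a and Trim30d of all 12 and the highest macrophage marker sum, 2015. In knockout the Trim30a call was lost, at differences of 0.47 to 0.61, without PBS library 1 (adjusted p = 0.113), PBS library 2 (0.0997), LPS library 1 (0.121) or LPS library 2 (0.0619). That of Trim30d was lost, at 0.54 to 0.61, without PBS library 2 (adjusted p = 0.0657), LPS library 1 (0.0507) or LPS library 2 (0.0605). Without the pair of libraries rich in red cell RNA the Trim30a difference was 0.63 in wild type (adjusted p = 0.0552) and 0.47 in knockout (adjusted p = 0.15), and that of Trim30d in knockout 0.61 (adjusted p = 0.0695).

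Trim30b, next to Trim30a, went the other way. It was at 10.5, 10.7 and 5.3 FPKM in wild-type PBS, 4.2, 5.23 and 4.56 in wild-type LPS, 10.3, 8.73 and 10.9 in knockout PBS, and 5.52, 4.79 and 5.67 in knockout LPS. Groups did not overlap within a genotype, although wild-type PBS library 3 at 5.3 lay close to the LPS values. Trim30b fell by 0.74 ± 0.20 in wild type (adjusted p = 0.00748) and by 0.79 ± 0.20 in knockout (adjusted p = 0.00646). Within a library, the ratio of Trim30b to Trim30a does not depend on the library's scaling. It was 0.125 to 0.158 in wild-type PBS and 0.126 to 0.162 in knockout PBS, against 0.0419 to 0.0564 and 0.0443 to 0.0594 under LPS. Trim30d to Trim30a was 0.362 to 0.462 in the 6 PBS libraries and 0.399 to 0.514 in the 6 LPS libraries. These ratios were chosen after the values were seen and are given without a test. Exact 50-base stretches shared with Trim30d make up 5.98% of the Trim30a transcripts, and those shared with any other gene make up 0.55% of Trim30b. Such counts leave out stretches that are similar but not identical, and how reads were divided among these genes was not tested.

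Trim34a, a SPRY gene of the same cluster, was at 31, 21.6 and 27.7 FPKM in wild-type PBS and 11, 14.2 and 10.2 in wild-type LPS. The knockout libraries were at 19.8, 22.6 and 24.7 under PBS and 14.5, 14.3 and 11.3 under LPS. Its LPS libraries all lay under the PBS libraries, and it fell by 1.11 ± 0.16 in wild type (adjusted p = 0.000128) and by 0.70 ± 0.16 in knockout (adjusted p = 0.00338). The difference between those responses was 0.41 ± 0.23 (adjusted p = 0.579). Shared with Trim34b were 39.8% of its 50-base stretches, and Trim34b was listed at 0.0731 to 0.785 FPKM, so the division of reads between the 2 is uncertain. An antisense gene also covers 23.5% of its exon length, and the strand of counting is not given in the sources used here.

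Trim5, the mouse gene named after the primate factor that restricts retroviral capsids, was at 4.54, 4.28 and 7.27 FPKM in wild-type PBS and 3.03, 2.99 and 2.64 in wild-type LPS. Knockout values were 4.44, 3.88 and 4.9 under PBS and 2.15, 2.25 and 2.61 under LPS. It fell by 0.68 ± 0.16 in wild type (adjusted p = 0.00275) and by 0.70 ± 0.16 in knockout (adjusted p = 0.00315), with no overlap. Trim12a, with group means of 16.3 to 17.8 FPKM, and Trim12c, with 19.7 to 21.5, overlapped between PBS and LPS and were not called. Their log2 differences were -0.07 ± 0.13 and 0.01 ± 0.13 in wild type, and 0.05 ± 0.13 and 0.12 ± 0.13 in knockout. Trim5 shares 36.3% of its 50-base stretches with other genes and Trim12c 33%, mostly with each other, while Trim12a shares 10.4%; their separate levels are uncertain to that extent. Trim6, also in the cluster, stayed at 0.095 to 0.293 FPKM.

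**Figure D3:**
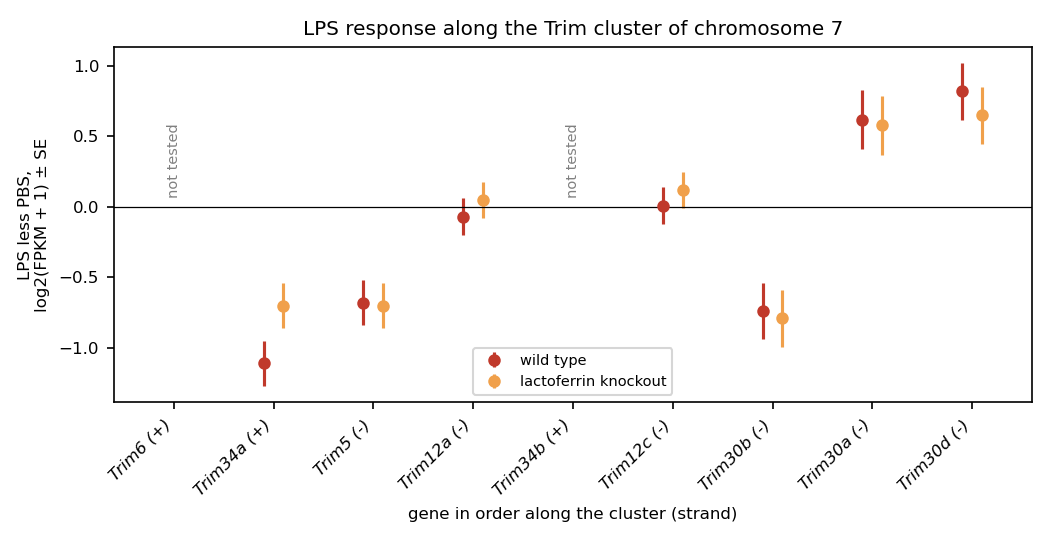
LPS less PBS on the log2(FPKM + 1) scale with the SE from limma for the genes of the chromosome 7 cluster, in genome order at even spacing, with the strand in brackets. Trim34a, Trim5 and Trim30b lie below 0, Trim12a and Trim12c near 0, and Trim30a and Trim30d above 0 in both genotypes; Trim6 and Trim34b were under the filter.

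Trim21, the cytosolic receptor for antibodies bound to viruses, was at 8.39, 8.3 and 7.73 FPKM in wild-type PBS and at 15.9 in all 3 wild-type LPS libraries. For the knockout they were 7.82, 7.3 and 12.1 under PBS and 14.2, 17 and 13.7 under LPS. No LPS library overlapped PBS, and Trim21 rose by 0.89 ± 0.15 in wild type (adjusted p = 0.000404) and by 0.69 ± 0.15 in knockout (adjusted p = 0.00278). Trim56, a ligase linked to cGAS-STING signalling and to antiviral defence, was at 11.5, 11.1 and 9.25 in wild-type PBS against 20.4, 18.6 and 18.9 under LPS. The knockout values were 11.2, 11 and 15.3 against 22.3, 21 and 20.5. Trim56 rose by 0.81 ± 0.12 (adjusted p = 0.000204) and by 0.73 ± 0.12 (adjusted p = 0.000581), again with no overlap.

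Trim25, the ligase best known for ubiquitin chains that activate RIG-I, was not called: its group means were 22.6 ± 2.53 (SD, n = 3) and 20.7 ± 1.17 FPKM in wild type under PBS and LPS, and 24.4 ± 4.09 and 23 ± 1.51 in knockout. Trim65, a ligase for the RNA sensor MDA5, was at 3.14, 3.69 and 3.77 FPKM in wild-type PBS and 1.77, 2.89 and 1.72 in wild-type LPS. It fell by 0.55 ± 0.15 in wild type (adjusted p = 0.0082), while in knockout it was at 2.88 to 3.32 under PBS and 2.38 to 3.55 under LPS, which overlap. The difference of responses was 0.51 ± 0.22 (adjusted p = 0.491), so a difference between genotypes was not established. Trim14, an adaptor at MAVS that lacks a RING, had log2 differences of -0.40 ± 0.19 and -0.22 ± 0.19 and was not called; the gene Nans on the opposite strand covers 31.3% of its exon length. Trim26, a ligase with a role in IRF3 turnover, went from 15.2 ± 1.41 to 17.2 ± 0.254 FPKM in wild type and from 15.8 ± 0.88 to 17 ± 1.62 in knockout, and was not called. Trim13, a ligase anchored in the endoplasmic reticulum, had differences of 0.51 ± 0.21 (adjusted p = 0.0521) and 0.52 ± 0.21 (adjusted p = 0.0542). With median-of-ratios rescaling Trim13 was called in both genotypes and Trim26 in wild type.

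Partners of these ligases in the sensing pathways were read from a list of 22 genes, 20 of them in the files and tested. In wild type 8 rose and 5 fell, and in knockout 7 rose and 2 fell, with medians of 0.19 and 0.11. Over all genes tested 24.8% rose and 37.4% fell in wild type, and 19.9% and 33.3% in knockout; the lists of partners are described beside these shares and not tested against them. Irf7, the transcription factor that amplifies type I interferon, rose by 1.86 ± 0.19 in wild type and 1.67 ± 0.19 in knockout. Ifih1, which encodes MDA5, rose by 1.81 ± 0.24 and 1.25 ± 0.24, and Dhx58, its regulator, by 1.19 ± 0.20 and 0.66 ± 0.20. Tmem173, which encodes STING, fell by 0.98 ± 0.14 and 0.68 ± 0.14. Among 11 ubiquitin-conjugating enzymes, which hand ubiquitin to RING ligases, 6 rose and 1 fell in wild type (24.8% and 37.4% of all genes) and 2 rose and 1 fell in knockout (19.9% and 33.3%). Ube2l6, also the enzyme for ISG15, rose by 1.14 ± 0.19 and 0.95 ± 0.19, and Ube2d1 fell by 0.98 ± 0.12 and 0.99 ± 0.12.

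Trim28 was at 56.3, 50.1 and 47.9 FPKM in wild-type PBS and 65.7, 79.7 and 83.6 in wild-type LPS. Knockout libraries were at 53.7, 46.4 and 49.2 under PBS and 72.3, 74.4 and 52.9 under LPS. The wild-type groups did not overlap, whereas knockout LPS library 3 lay under the highest knockout PBS library. Trim28 rose by 0.56 ± 0.15 in wild type (adjusted p = 0.00622) and by 0.40 ± 0.15 in knockout (adjusted p = 0.0377). The knockout call was lost without PBS library 2 (adjusted p = 0.114), PBS library 3 (0.0879), LPS library 1 (0.125) or LPS library 2 (0.136), and without the pair rich in red cell RNA (0.147). Of 10 genes that work with Trim28 in KRAB repression, 3 rose and 2 fell in each genotype. Over all genes 24.8% rose and 37.4% fell in wild type, and 19.9% and 33.3% in knockout. The list was not tested against these shares. Setdb1, the histone H3 lysine methyltransferase of the complex, rose by 0.58 ± 0.12 and 0.47 ± 0.12, and Cbx5, which encodes the heterochromatin protein HP1 alpha, by 0.78 ± 0.13 and 0.51 ± 0.13. Atf7ip, a stabiliser of Setdb1, fell by 0.92 ± 0.11 and 0.90 ± 0.11, and Chd3, a remodeller of the NuRD complex, by 0.91 ± 0.14 and 0.70 ± 0.14.

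Trim33, a PHD and bromodomain ligase that acts on Smad4, went from 6.73 ± 0.438 to 5.42 ± 0.139 FPKM in wild type and from 6.97 ± 0.888 to 5.24 ± 0.288 in knockout. It fell by 0.27 ± 0.09 (adjusted p = 0.0282) and by 0.35 ± 0.09 (adjusted p = 0.0095). Its wild-type call was lost without PBS library 1 (adjusted p = 0.0561), PBS library 2 (0.0841), LPS library 2 (0.067) or LPS library 3 (0.0762). With median-of-ratios rescaling the adjusted p was 0.15 in wild type and 0.0603 in knockout. Trim24, a cofactor of nuclear receptors, was at 2.04 to 3.96 FPKM in wild type and 1.97 to 2.76 in knockout and was not called.

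The largest falls were in 4 genes outside that cluster. Trim47, a SPRY ligase studied in blood vessels and tumours, was at 7.7, 21.5 and 10.8 FPKM in wild-type PBS and 0.389, 0.621 and 0.485 in wild-type LPS. Its knockout values were 17.1, 16.9 and 14.4 under PBS and 0.388, 0.541 and 0.68 under LPS. Every LPS library lay far under every PBS library, with mean FPKM 26.8 times lower in wild type and 30.1 times lower in knockout. On the log2 scale it fell by 3.14 ± 0.26 in wild type (adjusted p = 4.14e-06) and by 3.48 ± 0.26 in knockout (adjusted p = 2.81e-06). Trim47 abuts Trim65 on chromosome 11 and shares 225 exon bases with it on the same strand, 6.58% of its 50-base stretches.

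Trim8, a ligase tied to TAK1 and SOCS1 in inflammatory signalling, was at 29.9, 31.3 and 24 FPKM in wild-type PBS and 7.4, 7.49 and 6.28 in wild-type LPS. In knockout it was at 32.2, 31.9 and 31.2 under PBS and 10.7, 8.3 and 8.87 under LPS. The PBS and LPS libraries were far apart, and Trim8 had the lowest adjusted p of the family in both genotypes. It fell by 1.86 ± 0.12 in wild type (adjusted p = 8.29e-07) and by 1.68 ± 0.12 in knockout (adjusted p = 1.96e-06).

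Trim16, which links galectins on damaged membranes to autophagy, was at 2.12, 3.27 and 1.81 FPKM in wild-type PBS and 0.193, 0.0732 and 0.215 in wild-type LPS. In knockout it was at 2.67, 1.9 and 2.36 under PBS and 0.42, 0.103 and 0.3 under LPS. No library overlapped, and it fell by 1.53 ± 0.17 in wild type (adjusted p = 2.1e-05) and by 1.38 ± 0.17 in knockout (adjusted p = 5.9e-05). Trim7, a SPRY ligase that binds the glycogen primer glycogenin, was at 1.71, 2.13 and 3.8 FPKM in wild-type PBS and 0.265, 0.411 and 0.713 in wild-type LPS. The knockout libraries held 1.66, 1.3 and 1.38 under PBS and 0.227, 0.198 and 0.276 under LPS. It fell by 1.24 ± 0.19 in wild type (adjusted p = 0.000197) and by 0.99 ± 0.19 in knockout (adjusted p = 0.00128). With 1 FPKM added before the logarithm, the log2 differences of Trim16, Trim7 and Trim47 understate the change of such low values.

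**Figure D4:**
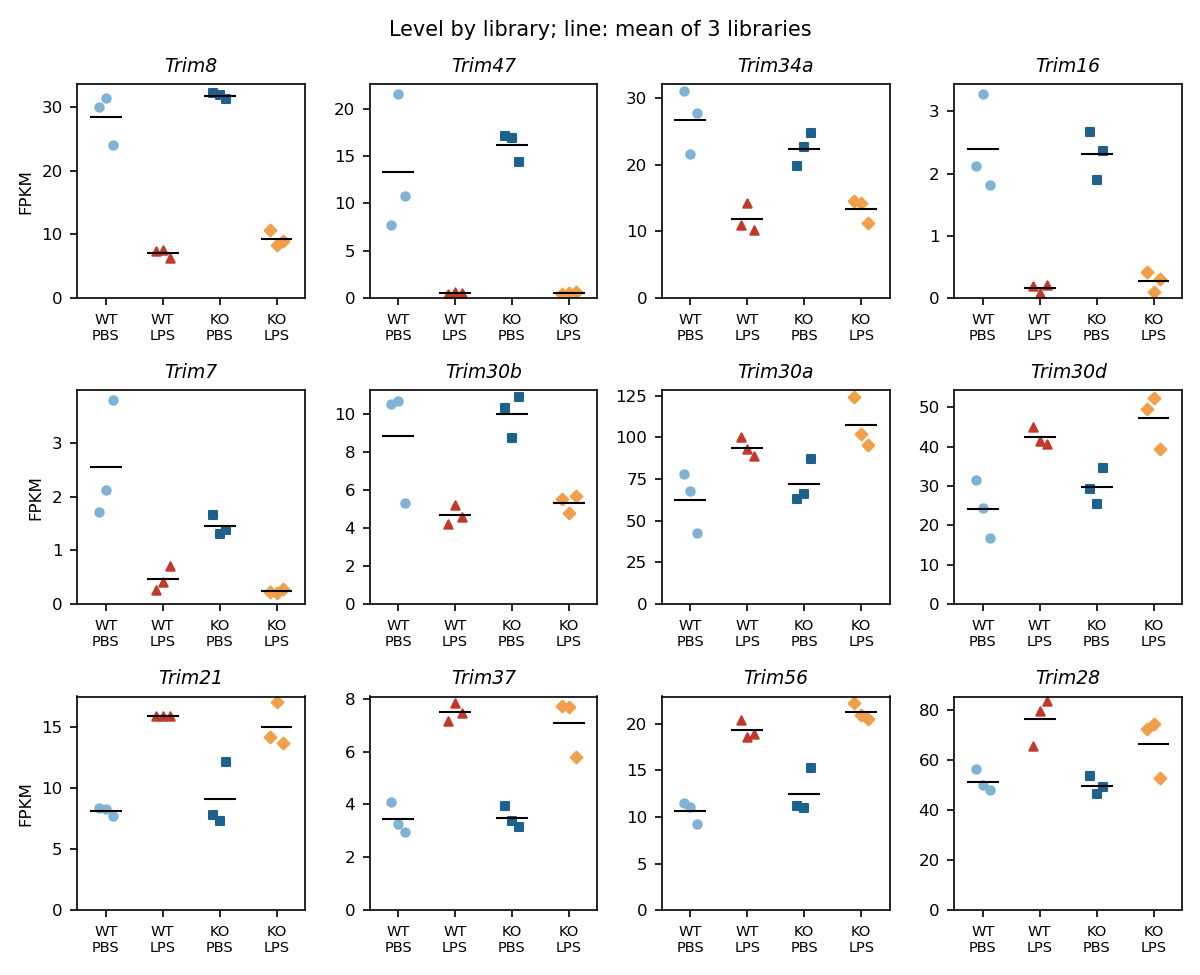
FPKM in each of the 12 libraries for 12 members, 1 panel per gene with its own axis from 0; points are libraries and lines are means of 3 (WT, wild type; KO, lactoferrin knockout). The fall of Trim47 and Trim8 and the rise of Trim21, Trim37 and Trim56 appear in both genotypes, and for Trim28 1 knockout LPS library lies at 52.9, within the PBS range.

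Trim37, a ligase of peroxisomes and centrioles mutated in Mulibrey nanism, had the largest rise of the family. It was at 4.09, 3.26 and 2.95 FPKM in wild-type PBS, 7.16, 7.84 and 7.47 in wild-type LPS, 3.92, 3.38 and 3.16 in knockout PBS, and 7.71, 7.68 and 5.81 in knockout LPS. The LPS libraries lay above all PBS libraries, and Trim37 rose by 0.94 ± 0.13 in wild type (adjusted p = 8.39e-05) and by 0.84 ± 0.13 in knockout (adjusted p = 0.000267). Trim27, which acts on the WASH complex of endosomes, rose by 0.47 ± 0.12 in each genotype, from 13.3 ± 1.64 to 18.7 ± 2.13 FPKM in wild type and from 12.9 ± 1.36 to 18.2 ± 1.61 in knockout. Trim44, which has a ubiquitin-protease-type zinc finger in place of a RING, rose in wild type from 20.7 ± 1.69 to 28.5 ± 1.48 FPKM (0.44 ± 0.12, adjusted p = 0.00897). In knockout its values were 19.8 to 22.5 under PBS and 19.2 to 27.7 under LPS (0.11 ± 0.12, adjusted p = 0.482). The difference of the Trim44 responses was -0.34 ± 0.18 (adjusted p = 0.563).

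Smaller falls were found in 7 further members. Trim59, a membrane-anchored ligase, fell by 0.70 ± 0.13 in wild type and 0.45 ± 0.13 in knockout, and Trim11, a SPRY ligase, by 0.60 ± 0.13 and 0.37 ± 0.13. In wild type alone the test was passed by Trim3 (fell by 0.75 ± 0.13), an NHL ligase of neurons, and Trim32 (fell by 0.34 ± 0.09), an NHL ligase mutated in a limb-girdle muscular dystrophy. In knockout alone it was passed by Trim35 (fell by 0.60 ± 0.11), Trim39 (fell by 0.33 ± 0.12) and Trim41 (fell by 0.29 ± 0.11), all SPRY ligases. In knockout the values of Trim41 under LPS overlapped those under PBS. None of these 5, and neither Trim44 nor Trim65, had an adjusted p under 0.453 for the difference between genotypes. Among calls in knockout, that of Trim11 was lost without PBS library 1 (adjusted p = 0.125), PBS library 3 (0.0713), LPS library 1 (0.107) or LPS library 3 (0.0632), and that of Trim59 without PBS library 1 (0.0542) or LPS library 2 (0.0557). The knockout call of Trim39 was lost without LPS library 1, where the difference was -0.20 (adjusted p = 0.166). It was also lost, at differences of -0.37 to -0.27, without PBS library 1 (adjusted p = 0.136), 2 (0.052) or 3 (0.0718) or wild-type LPS library 3 (0.0528). That of Trim41 was lost without PBS library 1 (adjusted p = 0.154) or 2 (0.0757), LPS library 1 (0.12) or 2 (0.124), or wild-type LPS library 3 (0.0528). Trim23, which carries a GTPase domain of the ARF type, Trim36, which binds microtubules, and Trim68, a SPRY ligase, were called in neither genotype, with group means of 2.49 to 3.04, 1.43 to 1.63 and 0.978 to 1.93 FPKM.

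Knockout against wild type asks whether the absence of lactoferrin changed the family, and no member passed limma's test under PBS or LPS. Under PBS 3 of 34 had an unadjusted p under 0.05 (Trim3, Trim7 and Trim68, each lower in knockout), with 11 of 9841 genes called (0.112%) and 897 at an unadjusted p under 0.05. Differences of the members ran from -0.49 to 0.37 with a median of -0.01, beside -0.02 over all genes. Under LPS 4 of 34 had an unadjusted p under 0.05, with 0 of all genes called (0%) and 744 at an unadjusted p under 0.05; the members ran from -0.45 to 0.37 with a median of 0.00. Trim35, a ligase that acts on pyruvate kinase M2, had the lowest p of these. It was at 17.2, 22.3 and 23.9 FPKM in wild-type LPS and 15.5, 15.8 and 14 in knockout LPS, which do not overlap. The limma difference of Trim35 was -0.45 ± 0.11, with a p adjusted over all genes tested of 0.333. Trim8 went the other way, 7.06 ± 0.672 against 9.28 ± 1.23 FPKM (0.35 ± 0.12, adjusted p = 0.594), as did Trim65 (0.37 ± 0.15, adjusted p = 0.655), and Trim44 was lower in knockout (-0.30 ± 0.12, adjusted p = 0.655). The neutrophil marker sum also lay higher in every knockout LPS library (710 to 2658) than in wild-type LPS (153 to 278), and its part in these values was not tested. S100a8 and S100a9 led that sum, with means of 801 and 800 FPKM in knockout LPS and 90 and 77 in wild-type LPS. None of the 6 neutrophil markers tested was called between the genotypes under LPS.

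Whether LPS acted differently on the family in knockout mice was tested as the difference of the responses. No member passed, beside 4 of 9841 genes (0.0406%); 2 members (Trim3 and Trim65) and 946 of all genes had an unadjusted p under 0.05. The differences ran from -0.34 (Trim44 and Trim47) to 0.51 (Trim65), with a median SE over all genes of 0.199. Trim3 was at 3.14, 4.36 and 3.35 FPKM in wild-type PBS, 1.69, 1.83 and 1.66 in wild-type LPS, 2.62, 2.98 and 2.32 in knockout PBS, and 1.76, 1.91 and 2.53 in knockout LPS. Its responses were -0.75 ± 0.13 and -0.25 ± 0.13, a difference of 0.50 ± 0.18 with an adjusted p of 0.453. The wild-type values separate by treatment and the knockout values overlap, but that difference did not pass the test.

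Against the motif shown above, response was mixed. Of the 8 tested members whose promoter window holds the interferon-stimulated core, Trim21, Trim30a and Trim30d rose in both genotypes, Trim34a and Trim5 fell in both, and Trim12a, Trim12c and Trim26 were called in neither. Trim5 and Trim12a, identical over the aligned 241 bases, had wild-type differences of -0.68 and -0.07. Of the risers called in both genotypes, Trim37, Trim56, Trim27 and Trim28 had a promoter entry without that core. A second motif, the gamma-activated core (TTC, any 3 bases, GAA), which reads the same on both strands and occurs in 8.3% of all windows, was in the window of no tested member. Another motif, the kappa B core (GGGA, any 2 bases, TTCC), in 1.47% of windows, was found in Trim28 alone. Trim8, Trim16, Trim3, Trim11, Trim14, Trim33, Trim35, Trim36 and Trim65 are named without promoter sequence.

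Under the filter, Trim46, known from the axon initial segment, averaged 0.829 FPKM and reached 1.53, and Trim72, known from repair of the muscle membrane, averaged 0.515 and reached 1.31. Trim46 was at 1.13 ± 0.258 and 1.17 ± 0.324 FPKM under PBS in wild type and knockout and at 0.47 ± 0.181 and 0.547 ± 0.269 under LPS. With no filter on low values, Trim2, Trim17, Trim34b, Trim46, Trim62, Trim69 and Trim72 were also called in wild type, all lower, and Trim46 and Trim62 in knockout. In knockout the calls of Trim28, Trim30a, Trim39 and Trim41 were then lost, at limma adjusted p of 0.0512 to 0.0586. Gapdh, an enzyme of glycolysis that cells in general use, was listed at only 2.33 to 4.26 FPKM in every library, so low and 0 values here may not give a gene's true level. Trim38, a regulator of Toll-like receptor signalling in macrophages, was listed at 0 in 11 of 12 libraries and reached 0.0182 FPKM. The muscle ligases Trim55 and Trim63 were listed at 0 in all, as were Trim15, Trim42, Trim50, Trim52, Trim60, Trim61, Trim75 and Trim80. Members of the family under other names were not part of the count of 67. Of these, Pml, the organiser of nuclear bodies, had means of 20.2 ± 5.83 and 27.5 ± 1.19 FPKM in wild type under PBS and LPS and 21.7 ± 4.53 and 26.5 ± 7.63 in knockout. Mefv, which encodes the inflammasome sensor pyrin, had 16.6 ± 8.24 and 9.56 ± 2.3 in wild type and 13.5 ± 2.64 and 13.9 ± 4.84 in knockout. Neither was called.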

How the data were processed

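The authors deposited 1 table per library of values per gene symbol, whose unit the files do not name; their size, decimals and totals and the named tool Cufflinks fit FPKM, and they were taken as FPKM. Per the submitters' processing notes, TopHat, Cufflinks, HTSeq and DESeq were used with GRCm38, without versions or roles. RNA was total RNA, per the labels' protocols. Of 21878 rows, 27 symbols turned into dates were dropped.

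From the 12 deposited FPKM tables, log2(FPKM + 1) of the 9841 genes that averaged 1 FPKM or more (45% of 21851) was fitted with limma 3.58.1 (R 4.3.3, trend and robust options, statmod 1.5.0), with 4 group means, 8 residual degrees of freedom, two-sided tests and Benjamini-Hochberg adjustment over all genes at 0.05. The fit was tested on simulated data. Differences carry the SE of limma. Positions and exon overlaps came from GENCODE models on GRCm38, promoters from RefSeq (GRCm38.p6), and alignments were local (Biopython 1.88). Shared 50-base stretches were counted over annotated transcripts.

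Members and gene lists were chosen with earlier results of these data known. Every tested member is named; members called with a difference of 1 or more get each library's value, and the other called members with values by library were added afterwards. From each partner list at most 4 called genes are named. Alternatives were other pseudocounts, filters, rescalings, variance options, only the compared groups, a replicate block and leaving out each library.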

Additional observations from a re-analysis of the deposited data

How the results depend on the processing

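Of the 41 calls of members in the LPS comparisons, 31 passed the threshold under every alternative run and 10 missed it under at least 1: Trim30a and Trim33 in wild type, and Trim11, Trim28, Trim30a, Trim30d, Trim33, Trim39, Trim41 and Trim59 in knockout. No call changed sign. Members lower in wild type numbered 20 with no filter on low values (13 with it), where more members were tested. Members higher in knockout numbered 4 (7 with all libraries) when the 2 libraries richest in red cell RNA were omitted, an alternative chosen after seeing the data. Leaving out each library in turn gave 7 to 9 members higher and 12 to 14 lower in wild type, 4 to 8 higher and 9 to 14 lower in knockout, and 0 to 0 in the genotype comparisons and the difference of responses; the lowest count of 4 came without knockout PBS library 2, knockout LPS library 1 or knockout LPS library 2. No alternative called a member in the genotype comparisons or the difference of responses. The labels do not say whether replicate numbers pair the libraries. Over 18 pairs with the same number, deviations from the group means correlated between -0.25 and 0.19, with 4 over 0.1. Pairs with different numbers ran from -0.29 to 0.38. With 3 libraries a group these values cannot exclude shared handling by number. With a replicate block all 21 calls in wild type and 16 of 20 in knockout were shared with the fit without it (not Trim11, Trim28, Trim39 and Trim41), giving 8 higher and 13 lower in wild type and 6 higher and 10 lower in knockout. Among members, the smallest difference called was 0.27 in size (Trim33 in wild type), and a difference of 0.45 in size between genotypes (Trim35 under LPS) did not pass, with 3 libraries a group and a depth that is unknown.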
